A study of Mus musculus with 6 samples.

Results

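Crisp1, Smgc, Bpifb9b, Obp1a and Obp1b are 5 mouse genes for secreted proteins known from exocrine glands, the epididymis and the nasal cavity. They were chosen by name from the 570 rows of the deposited table, with their high values in view, so their levels are a description and carry no test. The series holds 6 samples of primary osteoclasts, the bone-resorbing cells of the myeloid lineage, from wildtype C57BL/6 mice. All were induced with RANKL and M-CSF and labelled day 3; 3 are controls and 3 received interferon-gamma during differentiation. RNA sequencing was done on poly(A) RNA. Only the 3 columns named as controls match a sample title, so 0 columns could be assigned to the interferon-gamma samples and no comparison of treatment was made. The link of these columns to the osteoclast cultures is by name only, and the library names given in the labels (BLANK1 to BLANK3) differ from the column names. A mean of 100 or more was found for 29 rows, and 13 of these are Lce1 genes, which belong to the cornified envelope of the epidermis. Whether the table was made from these cultures cannot be told from the files used here, and every value below carries that doubt. The labels do not say whether the controls are separate animals or cultures, so the spread given below may be technical.

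The table presents itself as a list of differentially expressed genes, and its listed values summed to between 13318 and 13620 in the control columns. Sequencing depth is unknown, and the unit is not named by table or labels. Whether values are divided by transcript length is therefore not known, and a difference in level between genes cannot be read as a difference in transcript number. The labelled cell type could not be checked well. Of 16 osteoclast markers 1 was among the rows (6.25%), beside 515 of the 21900 protein-coding symbols of RefSeq (2.35%). It was Car2, the carbonic anhydrase used in bone resorption, at 10.9 ± 0.829 (SD, n = 3). A gene outside a selected list cannot be read as unexpressed.

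The 5 genes belong to 4 kinds of secreted protein. Crisp1 encodes a cysteine-rich secretory protein of the CAP superfamily, known from the epididymis, where the protein binds to sperm. Smgc encodes a secreted protein of the submandibular and sublingual glands and lies at the locus of the gel-forming mucin gene Muc19. Bpifb9b belongs to the BPI-fold proteins, secreted lipid-binding relatives of the bactericidal/permeability-increasing protein. Obp1a and Obp1b encode odorant-binding proteins, lipocalins that carry small hydrophobic molecules in nasal mucus.

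The bases directly before each gene's annotated start are shown because all 5 hold the letters TATAAA, though not at the same distance. RefSeq (build GRCm38.p6) gave a window for each of the 5 genes, matched by symbol, and the last 80 bases before the start are printed 5′ to 3′ on the gene's strand, with TATAAA in capitals. They lie at chr17:40319208-40319287, minus strand, for Crisp1; at chr15:91838248-91838327, plus strand, for Smgc; at chr2:154307164-154307243, plus strand, for Bpifb9b; at chrX:78091375-78091454, minus strand, for Obp1a; and at chrX:78186728-78186807, plus strand, for Obp1b.
Crisp1: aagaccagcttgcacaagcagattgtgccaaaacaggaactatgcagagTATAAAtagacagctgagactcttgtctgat
Smgc: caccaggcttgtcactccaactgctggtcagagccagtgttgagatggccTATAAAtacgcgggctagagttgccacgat
Bpifb9b: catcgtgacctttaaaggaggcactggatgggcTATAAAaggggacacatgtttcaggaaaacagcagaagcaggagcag
Obp1a: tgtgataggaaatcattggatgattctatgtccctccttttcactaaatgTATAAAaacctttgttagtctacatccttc
Obp1b: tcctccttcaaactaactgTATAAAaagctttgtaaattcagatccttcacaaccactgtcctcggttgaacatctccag
The first base of TATAAA stood 31 bases before the start in Crisp1, 30 in Smgc, 30 in Obp1a, 47 in Bpifb9b and 61 in Obp1b. With its first base between 40 and 20 bases before the start, the range usual for a TATA box, it was thus found in 3 of the 5 genes (60.0%), beside 9.35% of 460 windows of the table's other rows and 1.99% of the 32846 other windows in the RefSeq table. Anywhere within these 80 bases on the gene's strand, the shares were 12.0% of the former and 3.35% of the latter windows. With the reverse complement TTTATA counted too, over the whole window of 300 bases (250 before the start and 50 from it), they were 20.7% and 13.6%. The motif and ranges were chosen after the sequences had been read, and a match is a run of letters, not a site shown to act. The processing notes name GRCm39, another build, so these positions belong to the RefSeq sequences only.

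Crisp1 was the highest of the 5 and ranked 11 among the 570 rows by mean. Its values in controls 1, 2 and 3 were 233, 246 and 269, a mean of 249 ± 18.0 (SD, n = 3). Control 3 was the highest and control 1 the lowest, 1.15-fold apart. Crisp1 alone made up 76.7% ± 0.927 of the summed values of the 5 genes. The coefficient of variation (CV, the SD as a percent of the mean) was 7.22%, above that of 27 of the 28 other rows with a mean of at least 100, whose median was 3.20%. Without control 3 the CV of Crisp1 was 3.83%, and without control 2 it was 10.02%.

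Smgc was the gene whose columns differed most. Controls 1, 2 and 3 held 25.7, 18.4 and 29.4, a mean of 24.5 ± 5.60 (SD, n = 3; rank 53). Control 2 was the low column, and the highest and lowest values were 1.60-fold apart. The CV of 22.9% was above that of 43 of the 44 other rows with a mean from 10 to under 50, whose median was 6.49%. The exception was Cox8b, a cytochrome c oxidase subunit of muscle, at 23.6%. Without control 2, the CV of Smgc was 9.37%, and without control 1 it was 32.6%.

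Bpifb9b had the smallest spread of the 5 genes. In controls 1, 2 and 3 it stood at 22.3, 24.1 and 25.0, a mean of 23.8 ± 1.35 (SD, n = 3; rank 55). The CV of 5.68% was above that of 18 of the 44 other rows of like level. It was 2.68% without control 1 and 7.96% without control 2. Its mean lay within the range of the Smgc columns, so the order of Smgc and Bpifb9b is not set beyond their spread. In control 2 Bpifb9b was the higher, and in controls 1 and 3 Smgc was.

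The odorant-binding protein genes were lower and close to each other. Obp1a had values of 13.5, 14.9 and 16.0 in controls 1 to 3, a mean of 14.8 ± 1.26 (SD, n = 3; rank 67). Obp1b had values of 11.1, 12.9 and 13.7, a mean of 12.5 ± 1.32 (rank 73). The ranges of the pair overlapped, but within each column Obp1a was the higher. The ratio of Obp1a to Obp1b was 1.22, 1.16 and 1.17, a mean of 1.18 ± 0.0336 (SD, n = 3). This order rests on the value of Obp1b alone: against the sum of Obp1b and its near-identical copy Gm14743, described below, the ratio was 0.920, 1.03 and 0.943, a mean of 0.964 ± 0.0574, with Obp1a the lower in controls 1 and 3. The annotated transcripts of Obp1a and Obp1b are of similar but not equal length, 757 and 797 bases in GENCODE. Whether the values are per length would therefore shift these ratios. The shift was not computed, and the ratio to the sum lies close to 1. The CVs of 8.47% for Obp1a and 10.5% for Obp1b were above those of 37 and 40 of the 44 other rows of like level. Without control 1 they were 5.27% and 4.17%, and without control 2 they were 12.0% and 14.7%.

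**Figure D1:**
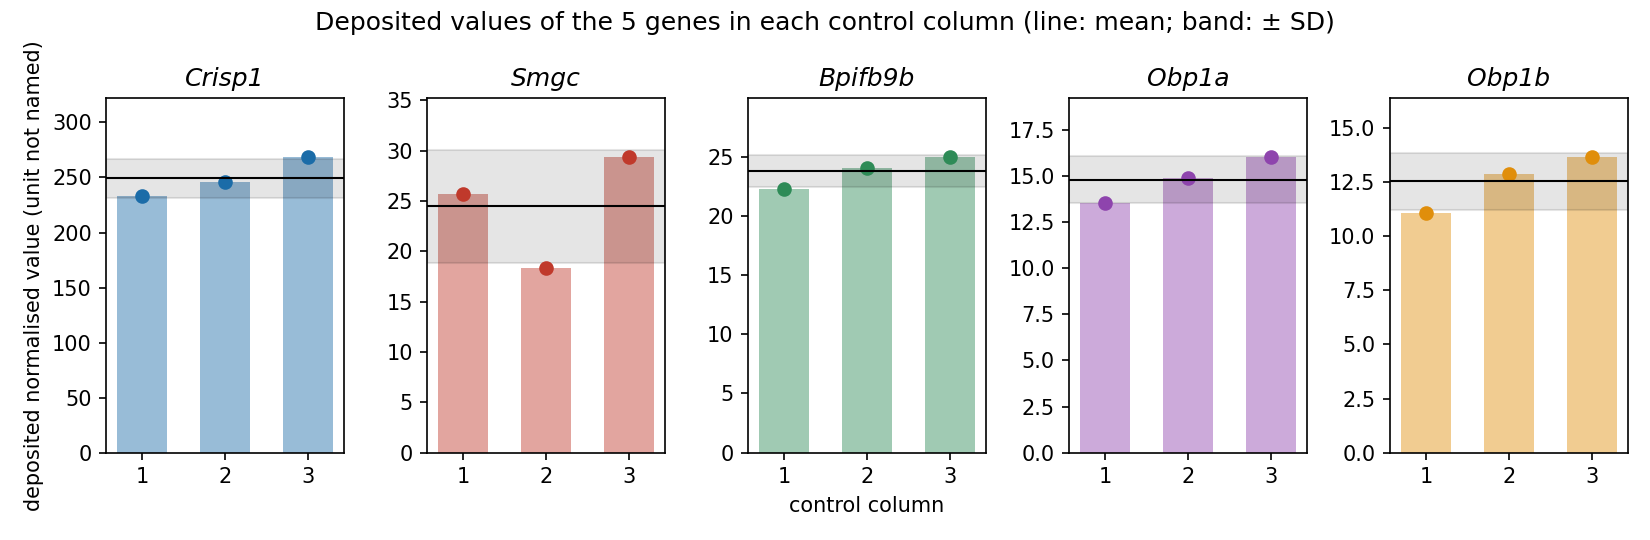
Deposited normalised values (vertical axis, from 0, a separate scale for each gene; unit not named) in the 3 control columns (horizontal axis); bars and dots are the columns' values, the line is the mean and the band the mean ± SD. Crisp1, Bpifb9b, Obp1a and Obp1b are lowest in control 1 and highest in control 3, whereas Smgc is lowest in control 2, at 18.4.

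**Figure D2:**
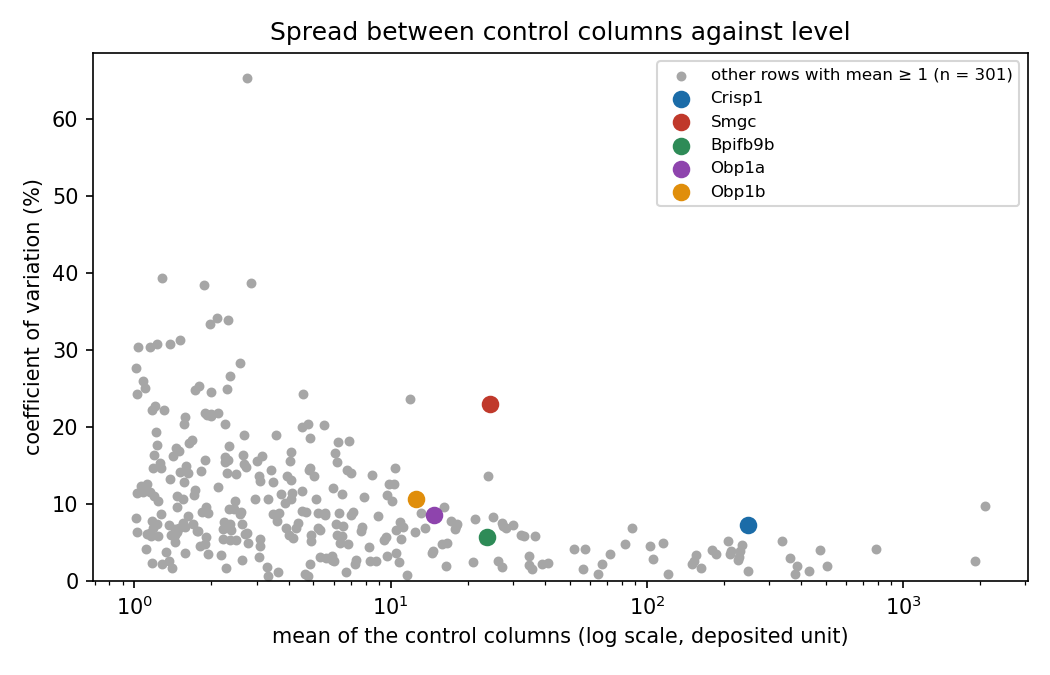
Coefficient of variation between the control columns (vertical axis, percent) against the mean of the columns (horizontal axis, log scale); coloured dots are the 5 genes and grey dots the 301 other rows with a mean of at least 1. Smgc, at 22.9%, stands above 43 of the 44 rows with a mean from 10 to under 50, and Crisp1, at 7.22%, above most rows with a mean of at least 100.

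Between the columns, 4 of the 5 genes shared an order in the listed values: control 1 was lowest and control 3 highest for Crisp1, Bpifb9b, Obp1a and Obp1b. For Obp1b the low place of control 1 did not hold in the sum with Gm14743, described below. This order was also the most frequent among the other rows with a mean of at least 10, at 23 of 80 (28.8%). On the log2(value + 1) scale, the deviations from a gene's own mean ran from -0.16 (Obp1b in control 1) to 0.12 (Obp1b in control 3) in these 4 genes. Smgc deviated by 0.09, -0.37 and 0.28 in controls 1 to 3. The order of the columns stayed as it was for each of the 5 genes when the columns were scaled by their sums or by their median ratios. The median-ratio divisors, 0.986, 1.004 and 1.017 for controls 1 to 3, rose in the order shared by the 4 genes. With them the CV was 5.73% for Crisp1, 4.18% for Bpifb9b, 6.96% for Obp1a, 9.09% for Obp1b and 22.5% for Smgc. With scaling by sums these CVs were 7.50%, 6.30%, 8.93%, 11.1% and 22.2%.

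Likeness was measured as the root mean square difference between the deviations of a pair of genes over the 3 columns, in log2 units. Among the 6 pairs without Smgc it ran from 0.0207 (Crisp1 and Obp1a) to 0.0530 (Bpifb9b and Obp1b), with a median of 0.0306. The 4 pairs with Smgc lay between 0.251 and 0.293. Over all 10 pairs the median was 0.0516, and the 3160 pairs among the other 80 rows with a mean of at least 10 had a median of 0.0697. Smgc was set apart after its values had been seen, while the other rows keep their outlying members. The 0.0306 is therefore not a like comparison with the 0.0697. With 3 columns, small distances arise between many rows, so these are descriptions and no correlation is given.

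**Figure D3:**
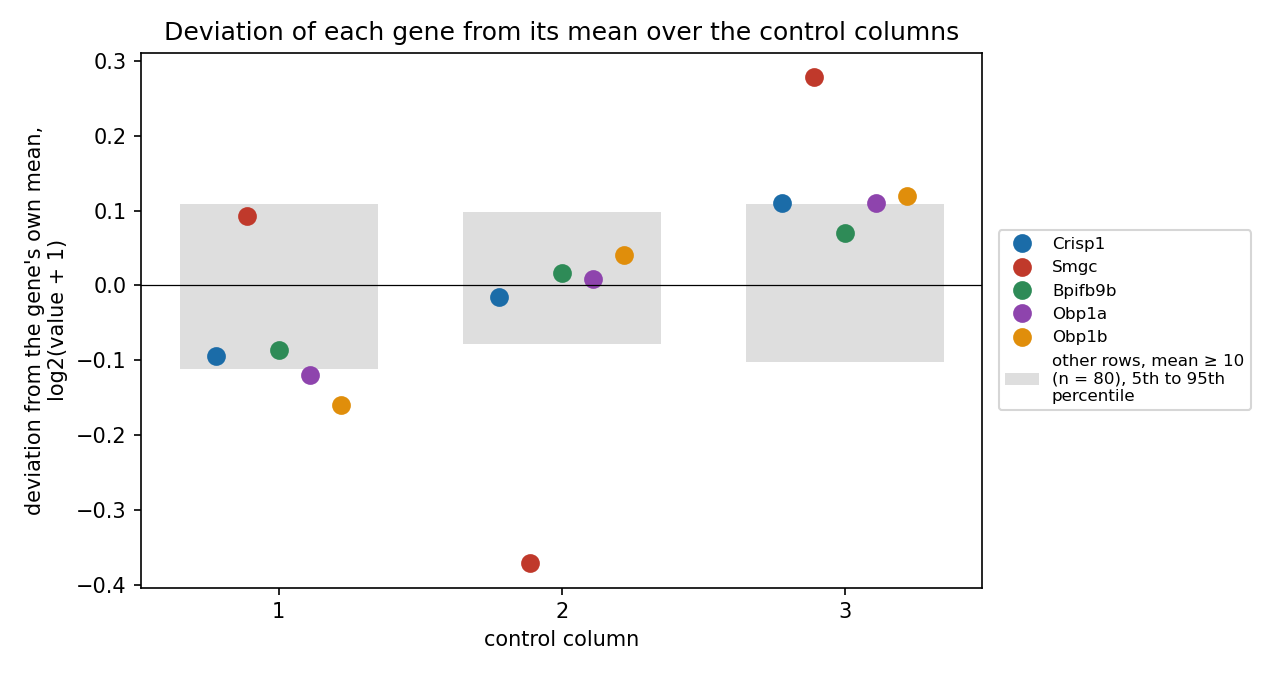
Deviation of each gene from its own mean on the log2(value + 1) scale (vertical axis) in each control column (horizontal axis); coloured dots are the 5 genes, shifted sideways for legibility, and grey boxes span the 5th to 95th percentile of the 80 other rows with a mean of at least 10. Smgc lies far below the box in control 2, at -0.37, and above it in control 3, at 0.28.

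Of the 301 other rows with a mean of at least 1, the one most like Obp1a was Mup4, a major urinary protein gene and itself a lipocalin, at a distance of 0.00197. Mup4 was listed at 6.48, 7.15 and 7.76. The rows most like Smgc were the small heat shock protein gene Hspb2 (0.0739), the cytokine gene Il24 (0.101) and Gm17660 (0.116). Gm17660, at 25.2, 20.3 and 26.4, was also next below Smgc in level and shared its low control 2. For Crisp1 the nearest rows were Kctd4 (0.00816), the fast muscle myosin light chain gene Myl1 (0.00868) and Heph (0.0110), and for Bpifb9b they were Enpp3 (0.0112), the chemokine gene Cxcl10 (0.0130) and Cep55 (0.0132). After Mup4, Obp1a was nearest to Fhl1 (0.00587) and Chchd10 (0.00757). Obp1b was nearest to the muscle gene Myoz1 (0.0143), to MSTRG.6263, an assembled transcript with no gene name (0.0174), and to Gnpda2 (0.0214). The nearest rows are thus of several kinds, muscle genes and a chemokine gene among them.

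In level, Crisp1 stood between the cornified envelope genes Lce1c (336 ± 17.2) and Lce1f (249 ± 3.08; SD, n = 3), and its own SD reaches the level of Lce1f. Smgc stood below the envelope precursor gene Sprr2g (25.0 ± 2.06) and above Gm17660 (24.0 ± 3.25), which in turn was next above Bpifb9b, with Cxcl10 (23.1 ± 1.23) next below. Obp1a lay between the interferon-induced gene Ifit1 (15.8 ± 0.745) and Gm4846 (14.7 ± 0.573), and Obp1b between Gnpda2 (13.1 ± 1.15) and Gm14744 (12.4 ± 0.789). Each of these neighbours other than Lce1c lay within 1 SD of the gene it is set beside.

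Near-identical copies limit what the values of Bpifb9b and Obp1b can show. Of the stretches of 31 bases in the Bpifb9b transcript, 80.5% also occur in transcripts of Bpifb9a, the gene beside it, and the longest shared run is 465 bases. Bpifb9a was listed at 9.61, 9.998 and 9.39, a mean of 9.66 ± 0.309 (SD, n = 3). Bpifb9b was 2.46 ± 0.176 times as high, and the pair together stood at 33.5 ± 1.33, with a CV of 3.97%. The sources used here do not say how reads were divided between the copies, so the sum rests on fewer assumptions than either value.

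Obp1b shares 80.7% of its 31-base stretches, and a run of 491 bases, with the predicted gene Gm14743. The values of Gm14743 were 3.63, 1.59 and 3.34 in controls 1 to 3, with a CV of 38.7%. Obp1b made up 75.3%, 89.0% and 80.3% of the sum of both in controls 1 to 3. The largest share, in control 2, follows mainly from the low value of Gm14743 there, since Obp1b itself was at its middle value. The sums were 14.7, 14.5 and 17.0, a mean of 15.4 ± 1.40 (SD, n = 3). In these sums control 2 was lowest, so the place of control 1 as the low column for Obp1b did not hold once Gm14743 was added.

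Obp1a and Obp1b, by contrast, share no run longer than 25 bases over transcripts that are 71.0% identical. Obp1a shares 15.8% of its 31-base stretches with Gm5938, which was not among the rows, and Crisp1 shares 10.2% with Crisp3. Smgc shares 2.14% with Muc19, also not among the rows. The Crisp3 values of 0.856, 0.478 and 0.532 are small beside those of Crisp1, so adding them left the CV at 7.15%.

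Several of the 5 genes lie beside another row of the table on the chromosome. In the RefSeq gene order of GRCm38, an adjacent protein-coding gene was also in the table for 4 of the 5 genes (80.0%) and for 68 of 510 other placed rows (13.3%). Smgc was the exception, with neither neighbour listed. Crisp1 lies beside Crisp3 and Bpifb9b beside Bpifb9a. The listed neighbours of Bpifb9b and Obp1b, Bpifb9a and Gm14743, are the near-identical copies described above. How reads were divided between the copies is not known, so these rows may not be separate signals. Obp1a and Obp1b lie in an X-chromosome group that also holds Gm14744, 5430402E10Rik and Gm14743, and of these 5 listed genes Obp1a had the highest mean. Gm14744 was listed at 13.3, 12.3 and 11.7, so its high column, control 1, is the low column of Obp1a and Obp1b as listed. For Obp1b this did not hold in the sum with Gm14743. The values of 5430402E10Rik, at 7.89, 8.22 and 8.61, had the same order as those of Obp1a.

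Genes of the same families and of gland secretion were read from 10 lists of 245 different symbols, of which 27 were among the rows. Besides the 5 genes, 22 of 240 were listed (9.17%), beside 515 of the 21900 protein-coding symbols of RefSeq (2.35%), with a median of the row means of 2.18, beside 1.18 over all 570 rows. Of the 22, 15 had a mean of 1 or more, beside 306 of the 570. Among the 22, Lcn2 alone reached a mean of 10. The shares of single lists given below still count the 5 genes, which were chosen from the rows. Without these genes, 4 lipocalin, 6 BPI-fold, 3 CAP superfamily and 5 salivary and lacrimal symbols were rows, and 0 mucin and 0 epididymal symbols. The lists were written with earlier results of these data known, and no list was tested.

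The lipocalin list had 6 of 46 symbols in the table (13.0%). Lcn2, an iron-siderophore binder made by neutrophils and epithelia, was the highest at 66.7 ± 1.46 (SD, n = 3). Obp2a, another odorant-binding protein gene, was listed at 9.21, 7.12 and 9.05, with control 2 lowest, unlike Obp1a. Mup4 had a mean of 7.13 ± 0.639 and Mup5 of 6.24 ± 1.12, and both were lowest in control 1 and highest in control 3. The other major urinary protein symbols and the retinol and prostaglandin carriers were not among the rows.

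The BPI-fold list had 7 of 17 symbols in the table, which at 41.2% was the largest share of the 10 lists. Below Bpifb9b and Bpifb9a came Bpifa1, an airway surface protein also called SPLUNC1, at 6.84 ± 0.326, and Bpifb3 at 4.91 ± 0.255 (SD, n = 3). Lbp, which binds bacterial lipopolysaccharide, was at 0.982 ± 0.100 and Bpifb4 at 0.449 ± 0.0426. Bpifa2, the parotid secretory protein gene, was listed at 0.160, 0.112 and 0, so a salivary product of the same family was at or near 0.

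The CAP superfamily list had 4 of 14 symbols in the table (28.6%). Pi16, a peptidase inhibitor homologue, was at 4.88 ± 0.287 and Crisp2, known from the testis, at 1.81 ± 0.0818 (SD, n = 3). Crisp1 was therefore far above every other listed member of its family. On the epididymal list, Crisp1 was the 1 of 20 symbols in the table (5.00%), so this share rests on the chosen gene alone.

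Of the salivary and lacrimal list 7 of 45 symbols were rows (15.6%). The demilune cell and parotid protein genes Dcpp1 and Dcpp3 stood at 2.10 ± 0.717 and 2.26 ± 0.363 (SD, n = 3), and Dcpp2 at 0.773 ± 0.518. Dcpp1 and Dcpp2 were lowest in control 2, as Smgc was, whereas Dcpp3 was highest there. The likeness of the Dcpp transcripts was not measured, so a division of reads between them was not tested. Smgc was the 1 of 18 symbols on the mucin list (5.56%), a share that also rests on the chosen gene alone. Of 26 kallikreins 2 were rows (7.69%): Klk1b26 was listed at 0.510, 0.298 and 0.633 and Klk1b9 at 0, 0.0920 and 0.0608. Of 24 secretoglobins 1 was a row (4.17%), Scgb2b27 at 4.01 ± 0.240.

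Of the regulators and transporters of gland epithelium 1 of 25 symbols was a row (4%), beside the 2.35% of all protein-coding symbols. That was Spdef, a transcription factor of secretory epithelium, at 2.75, 2.10 and 2.64, a mean of 2.50 ± 0.345 (SD, n = 3) with control 2 lowest. Of 20 olfactory genes 2 were rows (10%): the odorant-metabolising enzymes Ugt2a1 (1.17 ± 0.0270) and Cyp2g1 (1.15 ± 0.349). Genes of odorant signal transduction, such as Omp and Cnga2, were not among the rows. Fewer cells of a type and less RNA per cell cannot be told apart in such bulk values, and the part of any gland cells in them was not tested.

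**Figure D4:**
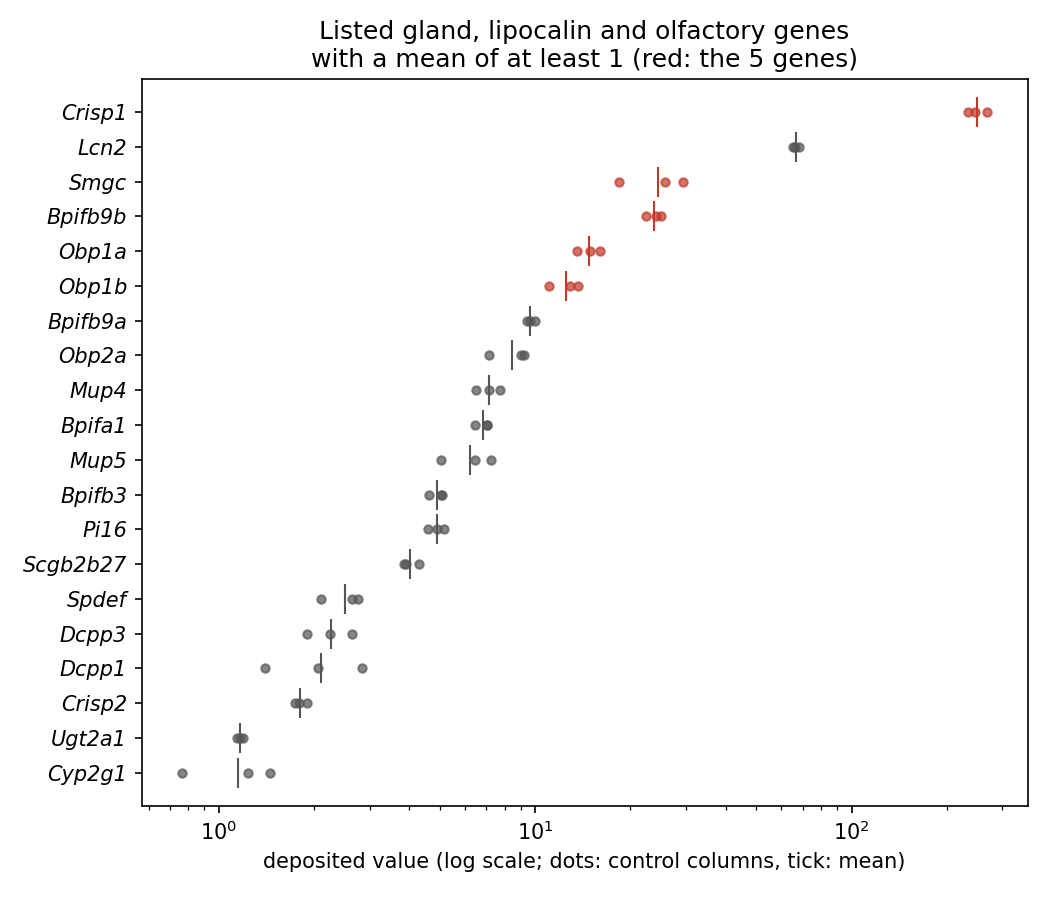
Deposited values (horizontal axis, log scale, unit not named) of the 20 symbols on the 10 gland, lipocalin and olfactory lists with a mean of at least 1, one gene per line; dots are the 3 control columns, ticks the means, and red marks the 5 genes. Crisp1 at 249 and Lcn2 at 66.7 stand apart from the rest, which run from 24.5 for Smgc to 1.15 for Cyp2g1.

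Together the 5 genes held 2.24%, 2.37% and 2.61% of the summed listed values in controls 1 to 3, a mean of 2.41% ± 0.186 (SD, n = 3). Without Crisp1 the other 4 held 0.561% ± 0.0532. These are shares of a selected list and not of a library.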

How the data were processed

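The table of normalised expression signal was deposited by the authors with 570 rows; its unit, the counting step and the rule by which rows entered it are not given in the sources used here. Per the submitters' processing notes, the tool named is Bowtie2 2.4.4 and the 2 builds named are GRCh37 and GRCm39, with no role stated. Columns were matched to samples by name: 3 match the control titles (the labels also give these libraries other names), and 3 columns match no sample and were not used in any step. Depth is unknown, and no count model and no test between groups was possible.

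For each row the mean, SD and CV over the 3 control columns were computed; deviations used log2(value + 1). Named genes were the 5 genes, list members whose mean reached 1, the 3 rows nearest in pattern to each gene (mean at least 1) and the rows next above and below in level; lower list members, near-identical copies and chromosomal neighbours were added after their values were seen. The members and lists were chosen with earlier results of these data known. Transcript comparisons used GENCODE M21 (longest coding transcript, 31-base stretches, global alignment with identity over all alignment columns). Alternatives were leaving out each column, scaling columns by sum or by median ratio, pseudocounts, filters and other denominators. The CV, the column scalings and the pattern distance were tested on simulated or constructed values. The other calculations were not tested in this way. Python 3.11.15, pandas 2.3.3, numpy 2.4.6, matplotlib 3.10.9 and Biopython 1.88 were used.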

Additional observations from a re-analysis of the deposited data

How the results depend on the processing

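No paired analysis was possible because columns with a matching label exist for the controls alone. The means of the 5 genes and the ratio of Obp1a to Obp1b moved by less than 1 SD under each alternative run, with 1 exception. The ratio, 1.18, was 0.964 against the sum of Obp1b and Gm14743, an alternative chosen after seeing the data; adding the copy to the denominator lowers it by construction. With 3 columns, leaving 1 out cannot move a mean by 1 SD, so those runs could not have shown such a shift. The scalings divided columns by 0.986 to 1.017, so they could change the means only a little. The CV did depend on single columns. With 1 column left out it ranged from 3.83% to 10.02% for Crisp1, 9.37% to 32.6% for Smgc, 2.68% to 7.96% for Bpifb9b, 5.27% to 12.0% for Obp1a and 4.17% to 14.7% for Obp1b. The lowest came without control 3 for Crisp1, without control 2 for Smgc and without control 1 for the others. The median CV of other rows whose mean reached 10, 4.15%, became 13.0% over rows of any level, since low rows vary more, and 2.96% to 4.40% with a column left out. The share of the 5 genes, 2.41%, was 2.85% without the highest row and 0.561% without Crisp1, the latter chosen after seeing the data; leaving out a column gave 2.31% to 2.49%. The median distance between the genes, 0.0516, ranged from 0.0244 to 0.0547 with a column left out, also chosen after seeing the data; the lowest was without control 2, where Smgc stands apart. Depth is unknown, so counting error cannot be given.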

Other observations

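Beyond the lists, 8 rows known from mucosal or secretory epithelium were picked by hand after the table had been read, and they were not tested as a group. Spink7, a protease inhibitor of squamous epithelium, had a mean of 72.0 ± 2.49, and Olfm4, a secreted olfactomedin of mucosal crypts and neutrophils, 7.27 ± 0.159 (SD, n = 3). Lrrc26, a potassium channel subunit of secretory epithelial cells, was listed at 1.47, 1.45 and 2.71, with control 3 the high column. The mucosal chemokine gene Ccl28 was at 0.439 ± 0.108, the anion exchanger gene Slc26a4 at 0.363 ± 0.138 and the dual oxidase gene Duox2 at 0.0748 ± 0.0242. Clca3a1 and Clca3b, of the calcium-activated chloride channel regulator family, stood at 0.237 ± 0.101 and 0.165 ± 0.0115.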
